A study of Mus musculus with 2 samples.

Results

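The genes described here encode the enzymes of phase II conjugation and the targets of the transcription factor NRF2 in mouse intestinal organoids (mIOs). They were chosen by symbol from the table of gene counts, as every glutathione transferase (Gst, Mgst), UDP-glucuronosyltransferase (Ugt1, Ugt2) and sulfotransferase (Sult) gene, together with 14 single genes of glutathione and thioredoxin metabolism, NRF2 control and epoxide hydrolysis. Of 19294 listed genes, 62 had such a symbol, and the 61 with 10 or more counts in either library are the members. The only gene left out by this minimum was Gstt4, which had 7 counts in the control against 3 with DSS. The member nearest to it was Ugt1a10, with 19 and 36 counts, so that every member had at least 10 counts in both libraries.

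The measurement was mRNA-seq of 1 control culture and 1 culture treated with dextran sulfate sodium (DSS) for 4 days, a sulfated polysaccharide used to injure the intestinal epithelium. Both are labelled day 4. Both cultures were grown from crypts of mice that carry the Lgr5-EGFP-IRES-creERT2 allele, which places EGFP and an inducible Cre under the control of the stem cell gene Lgr5, in medium with EGF, Noggin and R-spondin. The jejunum is the source named in the study's methods, while the age of the mice and the DSS concentration used for sequencing are not given in the sources used here. Sequencing gave 65493032 counts for the control and 59746968 for the DSS culture. The labels call the cells intestinal stem cells, but both libraries held abundant transcripts of mature cells. Sucrase-isomaltase (Sis), an enterocyte brush border enzyme, had 50761 counts in the control and 386101 with DSS. Lgr5 had 18849 and 1048.

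Phase II enzymes attach a small polar group to a drug, a dietary compound, a bile pigment or a hormone, so that it can be exported from the cell. Glutathione transferases use glutathione, UDP-glucuronosyltransferases use UDP-glucuronic acid, and sulfotransferases use the sulfate donor PAPS. In the small intestine these enzymes are known mainly from enterocytes, where they meet compounds taken up from the lumen. NRF2, encoded by Nfe2l2, is held in the cytoplasm and marked for degradation by KEAP1. Oxidants and electrophiles release it, and it then binds antioxidant response elements (AREs) beside genes for glutathione synthesis, thioredoxin recycling and quinone reduction.

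Counts were scaled with trimmed mean of M-values (TMM) factors and are given as counts per 1000000 of the scaled library (scaled CPM). Each difference is a log2 ratio of these values, DSS over control, and the interval beside it is an exact 95% interval by the Clopper-Pearson method. There are no replicates, so no test between conditions was made. The intervals cover counting error only, not variation between cultures. In RNA from whole organoids, a change in the number of cells of a type and a change in RNA per cell cannot be told apart.

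Most of the conjugation and NRF2 target genes were higher in the DSS library. A log2 ratio of 1 or more, a doubling, was reached by 36 of the 61 members (59.0%), against 19.3% of the 17235 genes with 10 or more counts in either library. No member had a log2 ratio of -1 or less, against 20.2% of all genes. The ratio was above 0 for 57 members, against 48% of all genes, and at 2 or more for 14 members, against 7.87%. None was at -2 or less, against 6.54% of all genes. The median log2 ratio was 1.31 over the members and -0.06 over all genes. Together the members took 687181 counts, 1.05% of the control library, and 1486219 counts, 2.49% of the DSS library, a log2 ratio of the summed counts of 1.501 (interval 1.497 to 1.506). Scaled by total counts alone, 32 members were at 1 or more and none at -1 or less, against 15.4% and 26.2% of all genes, and 53 were above 0, since Gstt3, Sult1c2, Prdx1 and Gsr changed sign.

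**Figure D1:**
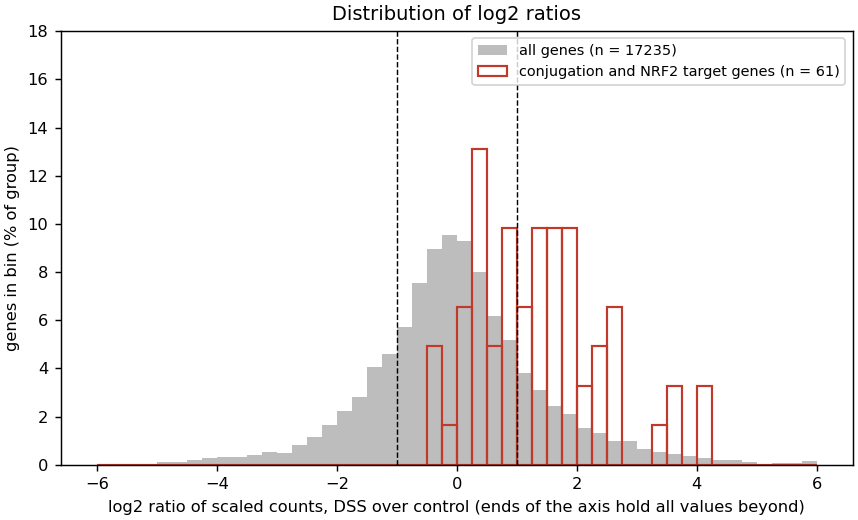
Percentage of genes in each bin of the log2 ratio of scaled counts (DSS over control, x axis, bins 0.25 wide), for all 17235 genes in grey and the 61 members as red outlines. The dashed lines mark a doubling and a halving; 36 members lie at or beyond the upper line and none at or beyond the lower one.

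The ratios differed between families. The median log2 ratio was 2.39 for the 7 sulfotransferases, 1.54 for the 15 UDP-glucuronosyltransferases, 1.36 for the 22 glutathione transferases, 1.05 for the 3 microsomal glutathione transferases and 0.61 for the 10 glutathione and thioredoxin enzymes. The genes of the NRF2 switch itself lay under these medians, with Nfe2l2 at 0.44 and Keap1 at -0.40. Scaled by total counts alone, the median of the 10 glutathione and thioredoxin enzymes was 0.35.

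**Figure D2:**
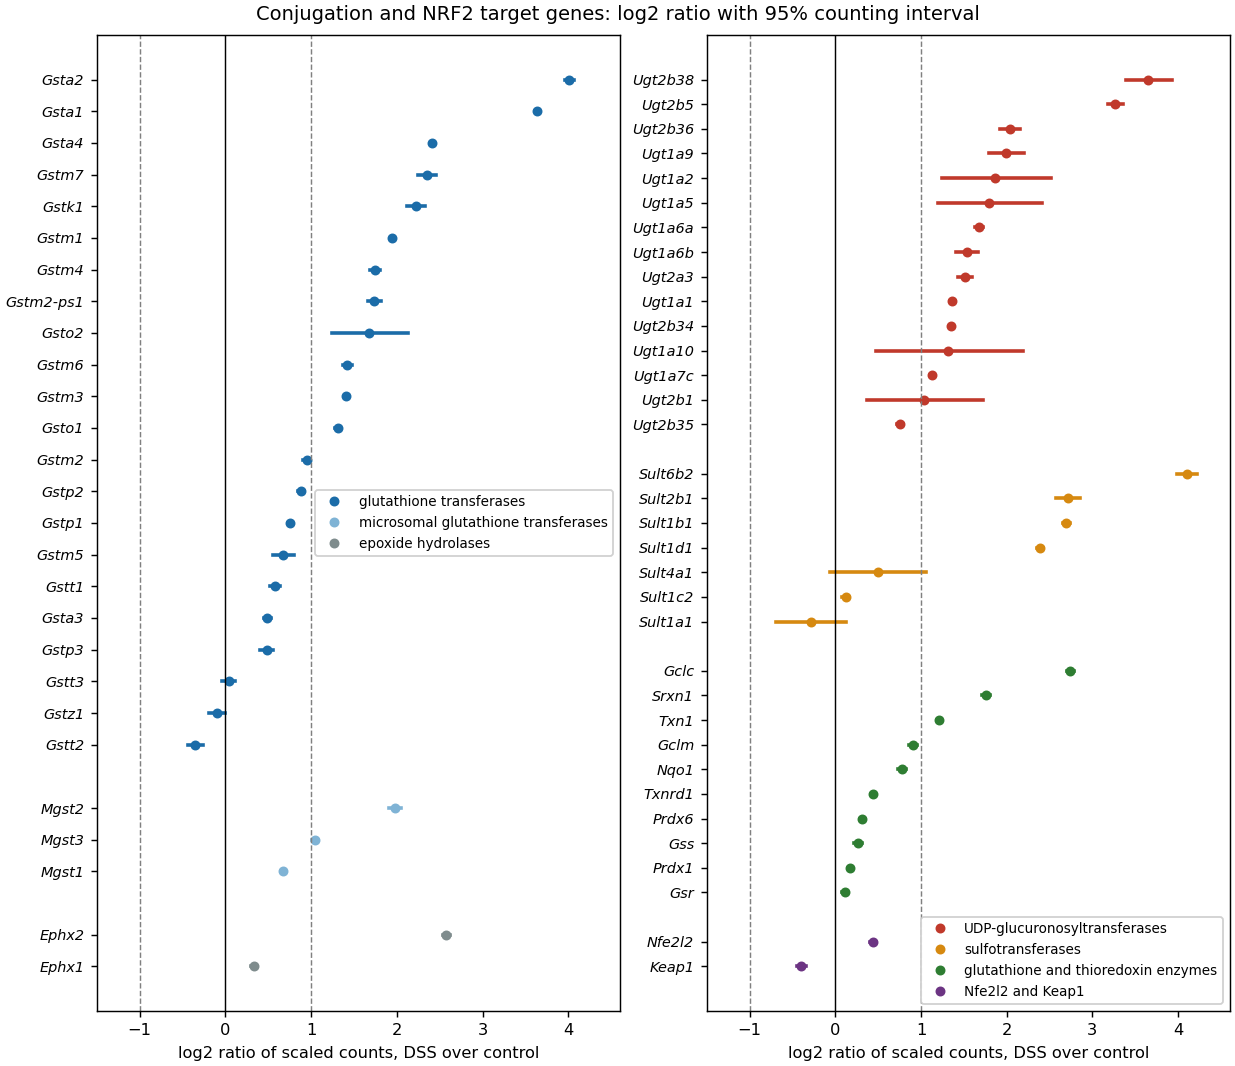
Log2 ratio of scaled counts (x axis, DSS over control) for each member, grouped and coloured by family and ordered within it. Points are the ratio of 2 libraries and bars the 95% counting interval; dashed lines mark log2 ratios of 1 and -1, and the members run from Keap1 at -0.40 to Sult6b2 at 4.10.

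Within the glutathione transferases, 3 of the 4 alpha class genes had the highest ratios. These cytosolic enzymes conjugate electrophiles and reduce lipid hydroperoxides. Gsta1 had 24334 counts in the control against 231063 with DSS, or 340 and 4226 scaled CPM. This was a 12.4-fold difference, a log2 ratio of 3.64 (interval 3.62 to 3.65). Gsta2 had 3490 and 43098 counts, a log2 ratio of 4.01 (interval 3.97 to 4.07). Gsta4, which is known for conjugating the lipid peroxidation product 4-hydroxynonenal, had 26290 and 106955 counts and a log2 ratio of 2.41. The fourth member of the class, Gsta3, differed little by comparison, with 9388 and 10060 counts and a log2 ratio of 0.49. Gsta1 thus stood at 2.59 times the counts of Gsta3 in the control and at 23.0 times with DSS.

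Gsta1, Gsta2 and a pair of neighbouring genes are so alike that their separate counts are uncertain, as the first 60 coding bases show, whereas Gsta3 and Gsta4 can be told from them. These were read from GENCODE vM21 transcripts (GRCm38), each from the start codon within 1 exon, and capitals mark bases that differ from Gsta1. The pair are Gm3776 and Gm10639, which lie in the same gene cluster and whose symbols fall outside the rule. They were added after their values were seen.
Gsta1: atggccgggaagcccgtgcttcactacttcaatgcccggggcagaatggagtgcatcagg
Gsta2: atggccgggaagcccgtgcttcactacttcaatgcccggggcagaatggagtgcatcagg
Gm3776: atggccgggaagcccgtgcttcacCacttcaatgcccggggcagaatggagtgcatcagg
Gm10639: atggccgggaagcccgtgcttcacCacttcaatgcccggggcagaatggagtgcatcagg
Gsta4: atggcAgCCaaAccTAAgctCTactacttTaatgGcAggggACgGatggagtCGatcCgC
Gsta3: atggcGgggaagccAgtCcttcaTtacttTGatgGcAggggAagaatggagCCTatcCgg
The Gsta1 bases lie at chr9:78232240-78232299 on the plus strand, in exon 2 of the transcript. Those of Gsta2 lie at chr9:78341857-78341916 on the minus strand, also in exon 2, and match Gsta1 throughout. Those of Gm3776 lie at chr9:78258712-78258771 and those of Gm10639 at chr9:78294806-78294865, both on the plus strand, with 1 base different in each. The Gsta4 bases at chr9:78198290-78198349 differ at 19 places. Gsta3, at chr1:21249772-21249831, differs at 13.

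Over its 669 coding bases, Gm3776 differed from Gsta1 at 2. Of all stretches of 100 bases in the longest Gsta1 transcript, 81.8% also occur in a transcript of another gene, most often Gm3776. For Gsta2 the share was 35.0%, most often with Gm10639, and for Gsta3 and Gsta4 it was 0. Gm3776 had 20591 counts in the control against 216799 with DSS, a log2 ratio of 3.78, and Gm10639 had 4391 and 43685 counts, a log2 ratio of 3.70. The sum over Gsta1, Gsta2, Gm3776 and Gm10639 does not depend on which of them a read was given to, if each read was counted once. It was 52806 counts in the control against 534645 with DSS, 0.0806% and 0.895% of all counts, with a log2 ratio of 3.73 and an interval from 3.72 to 3.74.

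The mu class, a second group of cytosolic enzymes, was higher at lower ratios. All 7 Gstm genes lay above 0, against 48% of all genes, and 5 had a log2 ratio of 1 or more, against 19.3%. Gstm1 had 59695 counts in the control against 175234 with DSS, 834 and 3205 scaled CPM, for a log2 ratio of 1.94. Gstm7 had the highest ratio of the class, 2.35, from 972 and 3788 counts. Gstm4 followed at 1.74, Gstm6 at 1.42 and Gstm3 at 1.41. Gstm2, at 0.95, and Gstm5, at 0.67, stayed under a doubling. The listed pseudogene Gstm2-ps1 had 1902 and 4837 counts and a log2 ratio of 1.74, but 12.9% of its 100-base stretches also occur in Gstm1 or Gstm3.

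The remaining classes ranged from -0.35 to 2.22. Gstk1, an enzyme of mitochondria and peroxisomes, had 903 and 3217 counts and a log2 ratio of 2.22. Gsto1, of the omega class that reduces dehydroascorbate and mixed disulfides, had 16394 and 31051 counts and a log2 ratio of 1.31, and Gsto2 was at 1.68 on only 61 and 149 counts. The pi class enzymes, which detoxify small electrophiles, stayed between 0.48 and 0.88. Gstp1 had 29026 and 37298 counts, a log2 ratio of 0.75, and shares 52.8% of its 100-base stretches with Gstp2 or a pseudogene. In the theta class no gene reached a doubling, with Gstt1 at 0.58, Gstt3 at 0.04 with an interval that held 0, and Gstt2 at -0.35 from 2831 and 1696 counts. Gstz1, the zeta class isomerase of tyrosine breakdown, was at -0.10.

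The microsomal enzymes are membrane proteins that are unrelated in sequence to the cytosolic classes. Mgst1 was at 0.67 and Mgst3 at 1.05. Mgst2, which can make leukotriene C4, had 2168 counts in the control against 6507 with DSS, a log2 ratio of 1.97 (interval 1.90 to 2.04).

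**Figure D3:**
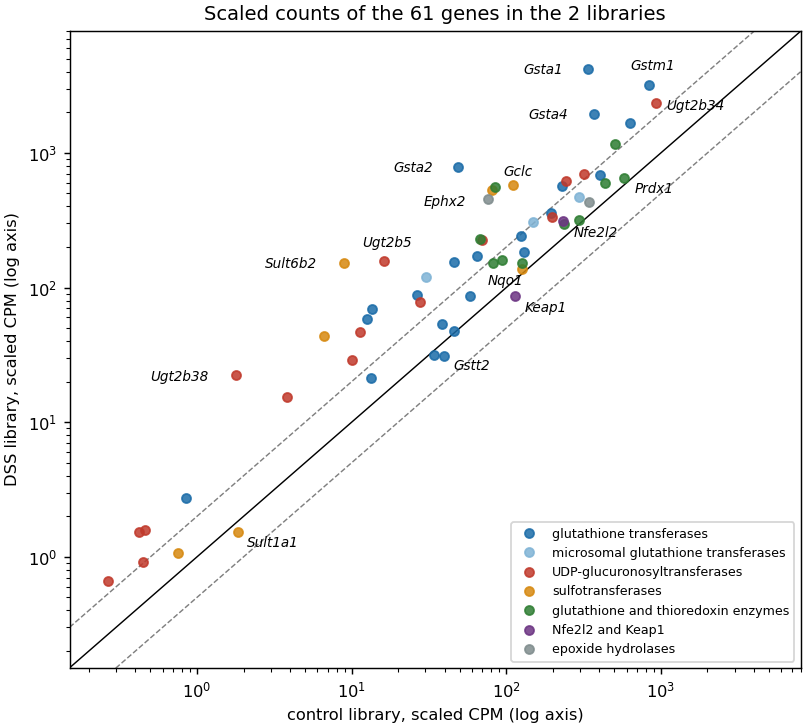
Scaled CPM of each member in the control library (x axis) and the DSS library (y axis), both on log axes, coloured by family. The solid line marks equal values and the dashed lines a doubling and a halving; with TMM factors 57 of the 61 members lie above the solid line, and Gsta1 is the highest point, at 4226 scaled CPM in the DSS library.

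UDP-glucuronosyltransferases sit in the membrane of the endoplasmic reticulum and glucuronidate bilirubin, steroids, phenols and drugs. All 15 members were above 0, against 48% of all genes, and 14 of them had a log2 ratio of 1 or more, against 19.3%. Scaled by total counts alone, 12 of them were at 1 or more. Only 3 of the 15, Ugt2b1, Ugt2b35 and Ugt2b36, share no 100-base stretch with another gene, and 2 of these 3 were at 1 or more, with a median of 1.03. The most abundant was Ugt2b34, with 66112 counts in the control against 128751 with DSS, 924 and 2355 scaled CPM and a log2 ratio of 1.35. The highest ratios were those of genes of the same subfamily. Ugt2b38 had 127 and 1220 counts, a log2 ratio of 3.65 (interval 3.39 to 3.93). Ugt2b5 had 1165 and 8575 counts and a log2 ratio of 3.27. Of the 100-base stretches of Ugt2b5, 24.7% also occur in another transcript, most often that of Ugt2b38. Ugt2b36 was at 2.04 and Ugt2a3 at 1.51. Ugt2b1 was at 1.03 (interval 0.36 to 1.72) on 32 and 50 counts, and Ugt2b35, at 0.75, was the 1 member of the family under a doubling.

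The 8 Ugt1a genes lay closer together, between 1.12 and 1.99. They arise from 1 locus, in which separate first exons are joined to a common set of downstream exons, and between 35.1% and 71.5% of the 100-base stretches of each also occur in another transcript. Their separate counts therefore depend on how shared reads were divided. Ugt1a1, the enzyme that conjugates bilirubin, had 17309 counts in the control against 34077 with DSS, a log2 ratio of 1.37. Ugt1a7c, with the most counts of the locus, had 22884 and 38107 counts and a log2 ratio of 1.12. Ugt1a6a, an enzyme for small phenols, was at 1.67 and Ugt1a6b at 1.54. Ugt1a9 was at 1.99 on 275 and 837 counts. Ugt1a2, Ugt1a5 and Ugt1a10 had between 19 and 33 counts in the control library. Over the whole locus, 46279 counts stood against 87037, a log2 ratio of 1.30 (interval 1.28 to 1.32).

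The sulfotransferases fell into separate groups. Of the 7 members, 4 had a log2 ratio above 2, against 7.87% of all genes, and the other 3 lay under 0.5. Sult6b2 had 638 counts in the control against 8365 with DSS, 8.91 and 153 scaled CPM. Its log2 ratio of 4.10 (interval 3.98 to 4.22) was the highest of all 61 members. Sult2b1, which sulfates cholesterol and related sterols, had 476 and 2386 counts and a log2 ratio of 2.71. Sult1b1, an enzyme for thyroid hormones and small phenols, had 5820 and 28763 counts and a log2 ratio of 2.69. Sult1d1, which sulfates catecholamines, had 7902 and 31618 counts and a log2 ratio of 2.39. The other members differed by less. Sult1c2 had 9098 and 7554 counts, for a log2 ratio of 0.12. Sult4a1 was at 0.49 and Sult1a1, a phenol sulfotransferase, at -0.28. Both had few counts, 54 and 58 for Sult4a1 and 132 and 83 for Sult1a1, and intervals that held 0.

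In the synthesis of glutathione, the subunits of the rate-limiting ligase differed from each other. Gclc, the catalytic subunit, had 6028 counts in the control against 30744 with DSS, 84.2 and 562 scaled CPM. Its log2 ratio was 2.74 (interval 2.70 to 2.78). Gclm, the modifier subunit, had 5852 and 8363 counts and a log2 ratio of 0.90. The counts of Gclc were 1.03 times those of Gclm in the control (interval 0.994 to 1.07), and 3.68 times in the DSS library (interval 3.59 to 3.77). Glutathione synthetase, Gss, which completes the tripeptide, had 9012 and 8275 counts and a log2 ratio of 0.27. Gsr, which reduces oxidised glutathione, had 21112 and 17407 counts and a log2 ratio of 0.11.

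The genes of the thioredoxin system ranged from 0.17 to 1.76. Sulfiredoxin, Srxn1, which repairs overoxidised peroxiredoxins, had 4828 and 12497 counts and a log2 ratio of 1.76 (interval 1.71 to 1.81). Thioredoxin itself, Txn1, had 36216 and 63918 counts and a log2 ratio of 1.21. Txnrd1, the reductase that recycles it, was at 0.44. The peroxide-removing enzymes Prdx6 and Prdx1 were at 0.32 and 0.17. Nqo1, the quinone reductase widely used as a readout of NRF2, had 6686 and 8747 counts and a log2 ratio of 0.78 (interval 0.73 to 0.82). Scaled by total counts alone, Gsr and Prdx1 turned to -0.15 and -0.087, and Txn1 fell under a doubling, to 0.95. All 10 genes of glutathione and thioredoxin metabolism were above 0 with TMM factors, against 48% of all genes, and 3 of them had a log2 ratio of 1 or more, against 19.3%.

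Nfe2l2 had 16558 counts in the control against 17126 with DSS, 231 and 313 scaled CPM, a log2 ratio of 0.44 (interval 0.41 to 0.47). Keap1 had 8185 and 4742 counts, a log2 ratio of -0.40 (interval -0.45 to -0.35). Scaled by total counts alone, Nfe2l2 was at 0.18 and Keap1 at -0.655. The counts of Nfe2l2 were 2.02 times those of Keap1 in the control and 3.61 times with DSS. NRF2 activity is set mainly by the stability of the protein, which these counts do not measure. The epoxide hydrolases also differed from each other. Ephx1, the microsomal enzyme for xenobiotic epoxides, had 24382 and 23409 counts and a log2 ratio of 0.33, or 0.074 scaled by total counts alone. Ephx2, the soluble enzyme for fatty acid epoxides, had 5465 and 24953 counts and a log2 ratio of 2.58.

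Levels were compared between genes as scaled CPM per kilobase of transcript, with lengths from GENCODE vM21 for 60 of the 61 members. In the control library Gstm1 had the highest level, 945, followed by Prdx1 at 872 and Gstp1 at 503. The length used for Prdx1 was 661 bases, against 2294 for its longest transcript, and its level and rank depend on that choice. In the DSS library Gsta1 was highest, at 4830, followed by Gstm1 at 3630 and Gsta4 at 2275. Gsta1 had ranked 8 in the control. Gsta1 and Gstp1 share many stretches with other genes, so their levels and ranks depend on how shared reads were divided. Gclc moved from rank 41, at 24.6, to rank 26, at 164, and Sult6b2 from rank 49, at 6.04, to rank 32, at 104. Nqo1 moved the other way, from rank 28, at 60.2, to rank 33, at 103.

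Promoters were searched for the core of the ARE, TGACNNNGC, on both strands, in the RefSeq windows from 250 bases before to 50 bases after each gene start (GRCm38.p6). Windows were held for 52 of the 61 members. Of these, 9 (17.3%) had a match, against 14% of all 27025 genes with a window and 16.6% of those that had 10 or more counts in either library. A match was present for 2 of the 31 members with a log2 ratio of 1 or more and for 7 of the 21 others. The other matches were in the windows of Gsta3, Gstm5, Nfe2l2 and Srxn1. The 5 windows printed here hold NRF2 targets and conjugation genes with low and high ratios, and capitals mark the match, which reads GCNNNGTCA where it lies on the opposite strand.
Gclm: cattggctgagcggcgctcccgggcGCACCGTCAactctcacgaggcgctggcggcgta
Prdx1: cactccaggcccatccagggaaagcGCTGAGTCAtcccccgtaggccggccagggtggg
Txnrd1: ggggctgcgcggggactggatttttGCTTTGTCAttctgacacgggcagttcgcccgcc
Mgst1: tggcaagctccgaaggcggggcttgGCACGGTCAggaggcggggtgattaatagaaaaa
Gstm7: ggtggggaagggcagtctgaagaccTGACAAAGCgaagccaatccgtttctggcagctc
Counted from the gene start, the first base of the match lies at -134 for Gclm (window chr3:122245398-122245456, plus strand), -133 for Prdx1 (chr4:116685441-116685499, plus) and -92 for Txnrd1 (chr10:82859089-82859147, plus). It lies at -56 for Mgst1 (chr6:138140446-138140504, plus) and -129 for Gstm7 (chr3:107931710-107931768, minus). Their log2 ratios were 0.90, 0.17, 0.44, 0.67 and 2.35. The median log2 ratio was 0.67 for the 9 members with a match and 1.37 for the 43 without. Bases outside these windows were not searched, so a member without a match here may still have an ARE elsewhere.

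A part of the binding site of HNF1, a transcription factor of differentiated enterocytes and hepatocytes, was searched in the same windows as GTTAAT on both strands. It was found for 9 of the 52 members (17.3%), against 8.24% of all genes with a window and 6.17% of those that had 10 or more counts in either library. Of the 9, 5 were UDP-glucuronosyltransferases. A match was present for 6 of the 31 members with a log2 ratio of 1 or more and for 3 of the 21 others. The windows printed here are those of the 4 genes with the most control counts among these 6, with the match in capitals, read as ATTAAC where it lies on the opposite strand.
Ugt1a1: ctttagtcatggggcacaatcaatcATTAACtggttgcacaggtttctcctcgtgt
Ugt1a6a: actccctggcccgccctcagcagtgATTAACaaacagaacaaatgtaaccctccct
Ugt2a3: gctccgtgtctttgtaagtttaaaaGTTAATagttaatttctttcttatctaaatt
Sult1d1: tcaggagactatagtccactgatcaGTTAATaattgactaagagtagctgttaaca
The match begins at -41 for Ugt1a1 (chr1:88211893-88211948, plus strand) and -50 for Ugt1a6a (chr1:88134734-88134789, plus). It begins at -54 for Ugt2a3 (chr5:87337219-87337274, minus), where a second one follows at -47, and at -79 for Sult1d1 (chr5:87569055-87569110, minus). The core of the site of the xenobiotic receptor AHR, GCGTG, was found for 17 of the 52 members (32.7%), against 35.2% of all genes with a window and 52.3% of those that had 10 or more counts in either library. A match to such short letters describes the window only.

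Several members are neighbours on a chromosome in the RefSeq gene order of GRCm38.p6, and their ratios were compared with those of the genes between them. From Gclc to Gsta2 the order holds 4 members and 10 other genes with 10 or more counts in either library. All 4 members and 8 of the 10 others had a log2 ratio of 1 or more, against 19.3% of all genes. Among the 8 were Gm3776 and Gm10639, which share stretches with Gsta1 and Gsta2, as well as Fbxo9 at 1.46, Ick at 1.74, Dppa5b at 5.29 and Dppa5c at 5.61. Elovl5, next to Gclc, was at -1.14. Dppa5b and Dppa5c rested on 18 and 21 counts in the control library. Another of the 8, Gm3126, had 9 counts in the control against 125 with DSS. It reached the minimum of 10 only through the library in which it was higher, so its place among the 8 carries no weight. From Ugt2b34 to Sult1d1 there are 9 members, of which 8 had a log2 ratio of 1 or more, with a median of 2.04. The 3 other genes of this stretch were Gm7652 at 4.15, Gm35570 at 2.73 and Gm5869 at -1.25. Gm7652 had 5 counts in the control against 68 with DSS (interval 2.86 to 5.82). It too reached the minimum only through the DSS library. The run of 7 Gstm genes had a median of 1.42, and Gm9515 within it was at -1.21.

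The other genes of the pathway were followed through 6 lists. Of 28 further NRF2 target genes in the table, 24 were above 0, against 48% of all genes. At 1 or above were 10 (35.7%), against 19.3%, and at -1 or below 2, against 20.2%, with a median of 0.73. The highest were Akr1b7, an aldose reductase relative, at 3.97 and the retinal dehydrogenase Aldh1a1 at 3.95, the latter with 6309 counts in the control against 74737 with DSS. Aldh1a7 was at 2.74. Slc7a11, which imports cystine for glutathione synthesis, had 1614 and 5281 counts and a log2 ratio of 2.10. Hmox1, the heme oxygenase, was at 0.58 from 698 and 796 counts. Gpx2, the glutathione peroxidase of the intestinal epithelium, was the lowest, at -2.30 from 10453 and 1622 counts. Of the 11 partners and regulators of NRF2, 2 (18.2%) had a log2 ratio of 1 or more, near the 19.3% of all genes. These were Mafk at 1.62 and Maff at 1.15, small MAF proteins that pair with NRF2 on DNA, while Mafg, the other small MAF on the list, was at -0.03 from 6763 and 5059 counts. Bach1, which also pairs with small MAF proteins and competes with NRF2, was at -0.05, and Cul3, the scaffold of the ubiquitin ligase that KEAP1 serves, at 0.38. Of the 11 genes, 1 was at -1 or less, against 20.2% of all genes, and the median was -0.03. This gene was Nfe2l3, at -2.45 on only 43 and 6 counts.

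Genes that supply the conjugation cofactors ranged from -5.17 to 3.62. Papss2, which makes PAPS, had 1641 counts in the control against 15434 with DSS, a log2 ratio of 3.62, whereas its paralog Papss1 was at -0.74. Ugdh, which makes UDP-glucuronic acid and is also on the list of NRF2 targets, was at 1.82, and Slc35d1, which carries UDP-glucuronic acid into the endoplasmic reticulum, at 2.12. Cbs, an enzyme of cysteine synthesis from homocysteine, had 425 counts in the control against 9 with DSS, a log2 ratio of -5.17. Of the 13 genes of this list, 4 (30.8%) were at 1 or above, against 19.3% of all genes, and 1 at -1 or below, against 20.2%, with a median of 0.31. Of 26 other enzymes of glutathione, thioredoxin and peroxides, 5 (19.2%) were at 1 or above, near the 19.3% of all genes. At -1 or below were 3, against 20.2% of all genes, and the median was 0.07. Gpx3, a secreted peroxidase, was at 3.68 on 82 and 803 counts. Ggt1, the surface enzyme that starts the breakdown of glutathione conjugates, was at 3.53 from 2562 and 22566 counts. Prdx4, the peroxiredoxin of the endoplasmic reticulum, was at -2.98.

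Among 18 other conjugating and deconjugating enzymes, 10 (55.6%) were at 1 or above, against 19.3% of all genes, and 2 at -1 or below, against 20.2%, with a median of 1.11. The carboxylesterases Ces2b and Ces1g were at 4.45 and 4.22, and Dpep1, a surface dipeptidase that processes glutathione conjugates, was at 3.24. The 17 receptors and transcription factors of xenobiotic and lipid sensing had 2 genes at 1 or more (11.8%), 2 at -1 or less and a median of 0.40, and both shares lay under the 19.3% and 20.2% of all genes. Nr1i3, which encodes the xenobiotic receptor CAR, had 3044 and 8143 counts and a log2 ratio of 1.81. Nr1i2, which encodes PXR, was at 0.59, Ahr at 0.44 and Hnf4a at 0.05. Cdx2, the intestinal identity factor, was at -1.35, and Ahrr, the repressor of AHR, at -1.66.

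Markers of the epithelial cell types differed between the same libraries in ways that ran beside these values. All 14 enterocyte markers had a log2 ratio of 1 or more, against 19.3% of all genes, with a median of 2.79. Their summed level was 4003 scaled CPM in the control against 30903 with DSS, and the most abundant was Anpep in the control and Sis with DSS. All 8 goblet cell markers were also at 1 or more, with a median of 3.16 and a sum of 866 and 11711 scaled CPM, led by Fcgbp in the DSS library. Of the 10 enteroendocrine markers 9 were at 1 or more, and the other, Neurog3, was at -3.14 from 692 and 60 counts. The 10 had a sum of 882 and 4562 scaled CPM, led by Chgb. All 10 stem cell markers were at -1 or less, against 20.2% of all genes, with a median of -3.41 and a sum of 2038 and 313 scaled CPM. Of the 9 Paneth cell markers 7 were at -1 or less, with a median of -1.19. By RT-PCR, the study reported lower Lgr5 and Lyz with DSS, but similar levels of Vil1, Muc2 and Chga. In the counts used here Lgr5 was at -3.78 and Lyz1 at -1.06, while Vil1 was at 1.25, Muc2 at 4.98 and Chga at 2.60. The part of these shifts in cell type markers in the values of the conjugation and NRF2 target genes was not tested.

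Of 10 mesenchymal markers 5 were in the table, and the 4 with 10 or more counts in either library summed to 6.62 and 35.9 scaled CPM, most of it Vim, with 374 and 1857 counts, while Col1a1 had 29 and 24 counts and Pdgfra 3 and 7. The 5 of 9 immune markers in the table summed to 14.3 and 24.9 scaled CPM, led by Cd68 in the control and Itgam with DSS, and Ptprc and Adgre1 were not listed. Tuft cell markers, 7 of 8 in the table, summed to 9.98 and 5.67 scaled CPM. Of 12 hepatocyte markers, named because liver shares many conjugating enzymes, 7 were in the table, and Alb had 62 and 110 counts. Their sum of 1007 and 402 scaled CPM was mostly Cps1, a gene that enterocytes also express.

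**Figure D4:**
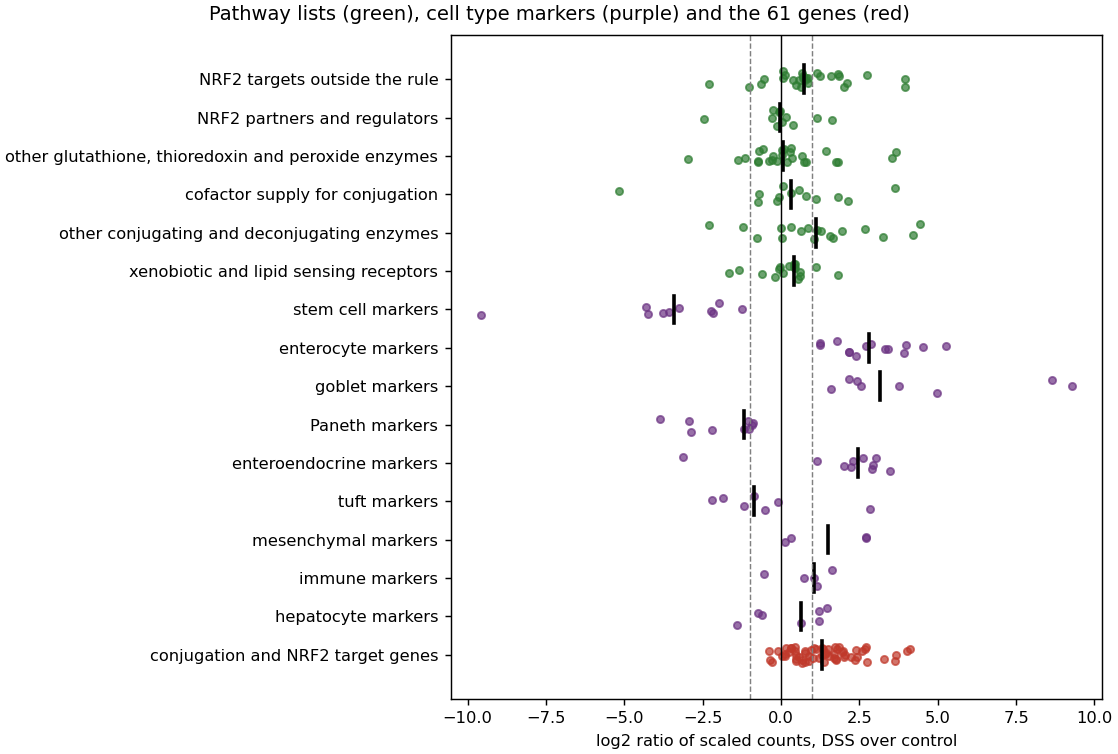
Log2 ratio of scaled counts (x axis, DSS over control) of each gene in the pathway lists (green), the cell type marker lists (purple) and the 61 members (red), for genes with 10 or more counts in either library. Black bars are medians and dashed lines mark log2 ratios of 1 and -1. The members have a median of 1.31, and the medians of the lists run from the stem cell markers at -3.41 to the goblet cell markers at 3.16.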

How the data were processed

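mRNA-seq was made from TruSeq stranded mRNA libraries, 1 control and 1 DSS culture. The values deposited by the authors are read counts, not normalized, with 1 entry per NCBI gene identifier. The submitters' processing notes name HISAT2 and StringTie; their versions and the genome build are not given in the sources used here. Per-sample files that carry FPKM in their names repeat these counts for all 19294 genes, and no FPKM value was used. The smallest count listed is 1, in either library. A gene without counts in 1 of the libraries was therefore not listed and could not be a member.

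Scaling used TMM factors of edgeR 4.0.16 (R 4.3.3), 1.09 for the control and 0.915 for the DSS library, and ratios and exact 95% intervals used scipy 1.17.1. The code was tested on simulated counts. With 1 library per condition no p-value is given. Alternatives were total counts, upper quartile factors, DESeq2 1.42.0 size factors, a prior count of 2, thinning, other count minimums and a line of 2. Leaving out members that share 100-base stretches with another gene was added after the data were seen.

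The members and gene lists were chosen with earlier results of these data known. The rule for named genes took the 14 single genes. For each conjugation family it took the 5 members with 50 or more counts in a library that lay farthest from a log2 ratio of 0. To these it added the 2 of each family with the most counts. From each pathway list it took the 3 genes farthest from 0, in either direction and with 50 or more counts in a library, beside 9 preset genes. Other genes were named after their values were seen.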

Additional observations from a re-analysis of the deposited data

How the results depend on the processing

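Scaled by total counts alone, every log2 ratio was lower by 0.26, which moved the median of all genes from -0.06 to -0.31 and the share of genes higher in the DSS library, among those past a doubling or halving, from 48.9% to 37.1%. Of the members, 32 were then at 1 or more, none at -1 or less, and 53 were above 0. Among these 32 were 12 UDP-glucuronosyltransferases and 2 genes of glutathione and thioredoxin metabolism. The median was 1.05 for all members, 1.10 for glutathione transferases, 0.79 for microsomal glutathione transferases, of which 1 stayed at 1 or more, 1.28 for UDP-glucuronosyltransferases, 2.13 for sulfotransferases and 0.35 for glutathione and thioredoxin enzymes. Gsr at -0.15 and Prdx1 at -0.087 changed sign. With upper quartile factors the medians were 1.40 for all members, 1.45 for glutathione transferases, 1.14 for microsomal glutathione transferases, 2.48 for sulfotransferases and 0.70 for glutathione and thioredoxin enzymes.

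At a line of 2 in place of 1, 14 members were past it, against 7.87% of all genes. Of these, 5 were glutathione transferases, 0 microsomal glutathione transferases, 3 UDP-glucuronosyltransferases, 4 sulfotransferases, 1 a gene of glutathione and thioredoxin metabolism and 1 the epoxide hydrolase Ephx2. Leaving out the 24 members that share a 100-base stretch with another gene kept 37, of which 18 (48.6%) were at 1 or more, against 19.3% of all genes, and none at -1 or less, against 20.2%, with a median of 0.90. Of these 18, 6 were glutathione transferases, with a median of 0.99 over that family, and 2 were UDP-glucuronosyltransferases, with a median of 1.03. The medians were 2.54 for sulfotransferases and 0.78 for glutathione and thioredoxin enzymes. A prior count of 2, other count minimums, DESeq2 size factors and thinning the deeper library changed none of these counts by over 1.5 times and moved no median past the median bounds of its members' intervals. No paired analysis was possible because each condition has 1 library. Depth limited the ratios of Ugt1a2, Ugt1a5, Ugt1a10, Ugt2b1, Sult4a1, Sult1a1 and Gsto2, which had the widest intervals of the 61 members.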
